A study of Homo sapiens with 8 samples.

Results

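The genes described here are 10 regulators of the passage from G1 into S phase: the D-type cyclins CCND1, CCND2 and CCND3, the E-type cyclins CCNE1 and CCNE2, the kinases CDK4 and CDK6, and the CIP/KIP inhibitors CDKN1A (p21), CDKN1B (p27) and CDKN1C (p57). They were chosen by name, with earlier results of these data known. Each was taken from the probe set that carried its symbol and no other. All 10 were found, each with 1 probe set, among 18417 genes with a single symbol. RNA came from A2780, a human ovarian carcinoma cell line, and from A2780CP20, a subline known as a cisplatin-resistant derivative of A2780. There were 4 groups of 2 Affymetrix Human Gene 1.0 ST arrays: A2780 without treatment, A2780CP20 without treatment, A2780 given temsirolimus for 24 h, and A2780 given temsirolimus for 48 h. Temsirolimus, an ester of rapamycin, blocks the mTORC1 kinase. All cells were grown in RPMI with fetal bovine serum. The drug was dissolved in DMSO, and the labels give neither its dose nor whether the untreated cells received DMSO. Nothing in the labels says that the 2 arrays of a group came from separate cultures, and the spread behind each p-value is that between arrays, which may be technical.

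In G1, D-type cyclins made in response to growth factors bind CDK4 or CDK6, and cyclin E binds CDK2 later in the phase. The active complexes phosphorylate RB1 and its relatives, which releases E2F factors to transcribe the genes of DNA synthesis. The CIP/KIP proteins bind these complexes: they inhibit CDK2 strongly, and p21 and p27 also help assemble cyclin D with its kinase. The abundance of p27 is largely set by translation and by degradation of the protein, and cyclin D1 synthesis is sensitive to mTORC1 at the level of translation. Arrays measure RNA only and carry no information on either step.

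Both arrays labelled temsirolimus 24 h were unlike the remaining 6. Over all genes they correlated with arrays of other groups at r = 0.950 to 0.952, whereas arrays of the remaining groups correlated with one another at 0.979 to 0.996. Within a group r was 0.991 for A2780CP20 and 0.996 to 0.997 for the others. These correlations run across genes, which are no independent replicates, and serve as a description. The difference between replicates had an SD over genes of 0.287 in A2780CP20 and 0.166 to 0.181 in the other groups. The fit used below pools the spread over groups. The mean log2 intensity of 7 epithelial marker genes was 7.14 to 7.17 on the arrays labelled 24 h and between 6.19 and 6.37 on all others, and that of 7 fibroblast and mesenchymal markers was 7.88 to 7.94 against 9.82 to 10.17. The epithelial mean moved through 2 of the 7 genes, the only ones called (adjusted p under 0.05, as set out below) against untreated A2780. Both were higher, where 30.1% of all genes were called, 14.9% higher and 15.3% lower. EPCAM, a surface protein of epithelial and carcinoma cells, measured 7.74 ± 0.09 (SD, n = 2) on the arrays labelled 24 h and 5.30 to 5.57 in the other group means. KRT18, a keratin, had a mean of 10.52 there against 7.58 in untreated A2780 and 7.27 at 48 h. The defining epithelial gene CDH1 (5.37 against 5.33), KRT19 (6.54 against 6.53) and CLDN4 (5.79 against 5.72) were not called. Of the mesenchymal genes 4 of 7 were called lower and none higher (15.3% and 14.9% of all genes). The collagen gene COL1A2 had means of 11.98 in untreated A2780, 6.59 on the arrays labelled 24 h and 11.98 at 48 h, and the proteoglycan gene LUM 11.31, 5.91 and 11.50. DCN (-3.79) and CDH2 (-1.41) were the others, while VIM (0.13), COL1A1 (0.07) and FN1 (0.18) were not called. Of 7 Mullerian and ovarian carcinoma markers, no more than 1 exceeded the median gene in any group. Among 3 leukocyte markers and 4 endothelial markers none did so in any group. The part of these differences in the results at 24 h was not tested. Whether the arrays labelled 24 h hold the same cells as the other A2780 arrays was not tested either, so an effect of the drug and a difference of cells cannot be told apart in any 24 h value. All values below are given under the deposited labels, and comparisons that do not use the arrays labelled 24 h were also fitted without them.

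Promoter sequence is shown for CDK6 and CDKN1B, the genes with the largest differences, and for CDK4, the close relative of CDK6 that moved little. RefSeq (GRCh38.p14) gave windows for 6 of the 10 genes. CCND1, CCND2, CCNE2 and CDKN1C were not matched. Each line holds the 250 bases before a start site, 5′ to 3′ on the gene's strand. Capitals mark every match, on either strand, to the E-box CACGTG, the GC box GGGCGG or the CCAAT box. The windows are chr12:57752311-57752560 (minus strand) for CDK4, chr7:92836574-92836823 (minus strand) for CDK6, whose RefSeq entry also has a second start site, and chr12:12717118-12717367 (plus strand) for CDKN1B.
CDK4: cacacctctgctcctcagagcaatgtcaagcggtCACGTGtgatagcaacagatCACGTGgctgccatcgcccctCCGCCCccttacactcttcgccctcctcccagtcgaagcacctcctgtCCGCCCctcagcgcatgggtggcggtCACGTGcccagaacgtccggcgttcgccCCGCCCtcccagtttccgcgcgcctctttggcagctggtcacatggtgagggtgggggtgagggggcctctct
CDK6: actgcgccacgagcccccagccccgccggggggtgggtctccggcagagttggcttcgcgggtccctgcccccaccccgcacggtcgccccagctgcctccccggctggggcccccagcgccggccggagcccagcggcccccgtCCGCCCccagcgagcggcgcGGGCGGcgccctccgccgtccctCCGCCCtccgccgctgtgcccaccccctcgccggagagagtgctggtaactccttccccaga
CDKN1B: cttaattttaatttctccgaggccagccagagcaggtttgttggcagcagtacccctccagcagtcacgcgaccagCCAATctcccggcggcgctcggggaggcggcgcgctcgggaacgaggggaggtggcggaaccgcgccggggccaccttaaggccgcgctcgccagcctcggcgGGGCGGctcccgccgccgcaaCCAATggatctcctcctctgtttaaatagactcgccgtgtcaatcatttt

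The CDK4 window held 3 E-boxes, the letters bound by MYC and other factors of the same family, and 6.34% of the 35116 RefSeq windows of this length held at least 1. It also held 3 GC boxes, as did the CDK6 window, which had no E-box and no CCAAT box. The window at the second CDK6 start site, not printed, held 0 matches to any of the motifs. A GC box was present in 42.6% of all windows. The CDKN1B window held 2 CCAAT boxes, found in 32% of all windows, and 1 GC box. Neither the FOXO motif GTAAACA (2.98% of windows) nor the E2F motifs TTTCCCGC, TTTCGCGC, TTTGCCGC and TTTGGCGC (2.79% for the set) matched any of the 3 windows. GC content was 80% for CDK6, 65.6% for CDK4 and 64.4% for CDKN1B. A match describes letters only and says nothing of whether a factor was bound.

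Values are log2 intensities as deposited. Differences are between group means ± the standard error of a limma fit (n = 2 arrays per group), and adjusted p is limma's with Benjamini-Hochberg adjustment over all 18417 genes. Genes with an adjusted p under 0.05 are referred to as called. Intensities of different genes depend on their probes and are not compared with each other.

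Across the 4 groups, 8 of the 10 genes had their lowest mean on the arrays labelled 24 h, where 28.5% of all genes had theirs. The highest mean was there for 1 gene, CCNE2, and for 31.8% of all genes. CDKN1B was lower both in A2780CP20 and on the arrays labelled 24 h than in untreated A2780. CDK6 showed the widest range of group means, 2.06 log2 units, and CDKN1C the narrowest, 0.29. Without the arrays labelled 24 h the widest range was that of CDKN1B, 0.84, and CCND1 spanned 0.14.

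**Figure D1:**
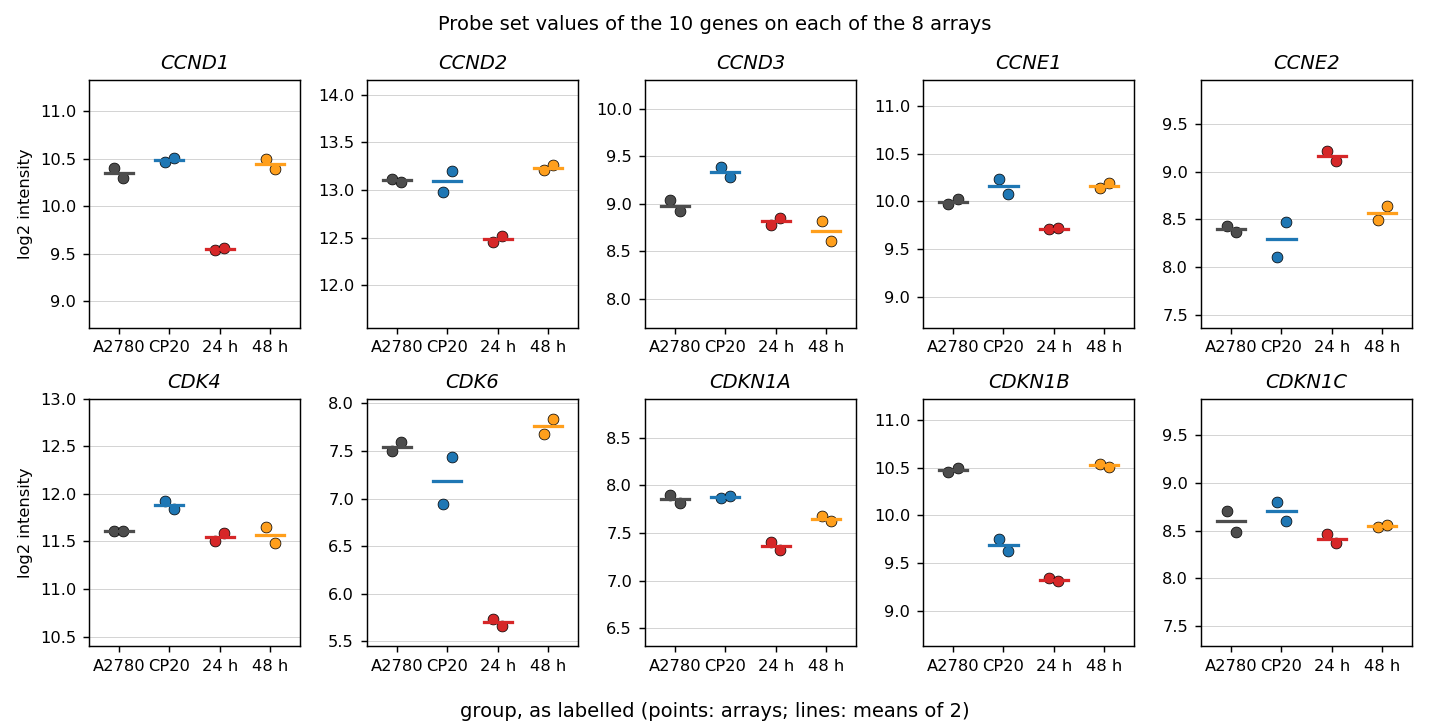
Log2 intensity (vertical axis, the same span of log2 units in every panel) of each of the 10 genes on the 8 arrays, by labelled group (horizontal axis; CP20 is A2780CP20, 24 h and 48 h are temsirolimus times). Points are arrays and lines are means of 2 arrays. On the arrays labelled 24 h 9 of the 10 genes lie below untreated A2780 without overlap, among them CDK6 (5.66 and 5.74) and CDKN1B (9.31 and 9.34). Of all genes 66.0% did not overlap there. In A2780CP20 2 genes lie below it, CDKN1B (9.62 and 9.75) and CDK6 (6.94 and 7.44), where 55.3% of all genes did not overlap.

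CCND1 encodes cyclin D1, the D-type cyclin most often amplified in carcinomas. It measured 10.40 and 10.30 in untreated A2780, 10.46 and 10.51 in A2780CP20, 9.54 and 9.56 on the arrays labelled 24 h, and 10.49 and 10.39 at 48 h. The arrays labelled 24 h were low and the other 6 all measured 10.30 or more. Against untreated A2780 the difference at 24 h was -0.80 ± 0.09 (1.74-fold lower, adjusted p = 0.000234 from limma). It was 0.14 ± 0.09 in A2780CP20 (adjusted p = 0.336) and 0.09 ± 0.09 at 48 h (adjusted p = 0.763), with 95% intervals of -0.07 to 0.34 and -0.12 to 0.30.

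CCND2, which encodes cyclin D2, gave the values 13.12 and 13.08 in untreated A2780, 12.98 and 13.20 in A2780CP20, 12.45 and 12.52 on the 24 h arrays, and 13.21 and 13.26 on the 48 h arrays. Only the arrays labelled 24 h stood below the rest, by -0.62 ± 0.10 against untreated A2780 (1.53-fold lower, adjusted p = 0.0019 from limma). CCND3, which encodes cyclin D3, followed another order. Its values were 9.04 and 8.92 in untreated A2780, 9.39 and 9.28 in A2780CP20, 8.78 and 8.85 on the 24 h arrays, and 8.82 and 8.61 on the 48 h arrays. Both A2780CP20 arrays were the highest of the 8, without overlap. The difference from untreated A2780 was 0.36 ± 0.11, with an adjusted p of 0.0506 from limma that missed the threshold, and it passed under 6 of 18 alternative settings (0.0299 to 0.239 over all of them). Against the arrays at 48 h, A2780CP20 was higher by 1.54-fold (48 h minus A2780CP20, -0.62 ± 0.11, adjusted p = 0.00595). That call ended without replicate 2 at 48 h (-0.52, adjusted p = 0.0647). At 24 h and 48 h CCND3 measured -0.17 ± 0.11 and -0.27 ± 0.11 against untreated A2780, neither called.

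The E-type cyclins moved in opposite directions on the arrays labelled 24 h. CCNE2 encodes cyclin E2 and is a target of E2F. It measured 8.43 and 8.37 in untreated A2780, 8.11 and 8.47 in A2780CP20, 9.22 and 9.11 on the 24 h arrays, and 8.49 and 8.64 on the 48 h arrays. The arrays labelled 24 h were the highest, and the 2 A2780CP20 arrays spanned those of untreated A2780. It rose by 0.77 ± 0.13 at 24 h (1.70-fold, adjusted p = 0.00225 from limma), the only one of the 10 genes called higher in any comparison with untreated A2780. CCNE1, which encodes cyclin E1, measured 9.97 and 10.02 in untreated A2780, 10.24 and 10.08 in A2780CP20, 9.71 and 9.72 on the 24 h arrays, and 10.14 and 10.19 on the 48 h arrays. Its arrays at 24 h were the lowest of the 8. The difference from untreated A2780 was -0.28 ± 0.09, with an adjusted p of 0.0516 that missed the threshold and passed under 5 of 17 alternative settings. From 24 h to 48 h the difference was 0.45 ± 0.09 (1.37-fold higher at 48 h, adjusted p = 0.00629), and it was not called without replicate 2 at 48 h (0.42, adjusted p = 0.0511).

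CDK6, one of the kinases that bind D-type cyclins, had the largest difference of the 10 genes. It measured 7.50 and 7.59 in untreated A2780, 6.94 and 7.44 in A2780CP20, 5.74 and 5.66 on the 24 h arrays, and 7.68 and 7.84 on the 48 h arrays. The arrays labelled 24 h lay more than 1 log2 unit below every other array. The fall against untreated A2780 was -1.85 ± 0.15 (3.59-fold lower, adjusted p = 3.94e-05 from limma), and 1.21% of all genes fell further in that comparison. At 5.70 the mean at 24 h was below 5.76, the lower quartile of gene means, so the fall can be understated. In A2780CP20 the difference was -0.36 ± 0.15 (adjusted p = 0.149), and the 2 arrays were 0.50 apart. Without replicate 2 of A2780CP20 it was -0.605 and called (adjusted p = 0.0083), and without replicate 1 it was -0.105 (adjusted p = 0.565), so the size of the difference rests on which array is kept. At 48 h CDK6 measured 0.22 ± 0.15 against untreated A2780 (adjusted p = 0.662).

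CDK4 encodes the other kinase partner of the D-type cyclins. Its values were 11.61 and 11.61 in untreated A2780, 11.92 and 11.84 in A2780CP20, 11.51 and 11.59 on the 24 h arrays, and 11.65 and 11.48 on the 48 h arrays. The A2780CP20 arrays were the highest and those of the other groups ran from 11.48 to 11.65. At 24 h the difference from untreated A2780 was -0.06 ± 0.10 (95% interval -0.28 to 0.16, adjusted p = 0.706), an interval that leaves out a fall of the size measured for CDK6. In A2780CP20 it was 0.27 ± 0.10 (adjusted p = 0.0877), which passed with an intensity trend in the prior (0.0264) and under no other of the 18 settings. The probe set may share sequence with 1 pseudogene named after CDK4 in RefSeq, as those of CCND2 with 1 and CCND3 with 2 may.

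CDKN1B encodes p27, which holds cyclin E and CDK2 inactive in resting cells. It measured 10.45 and 10.50 in untreated A2780, 9.75 and 9.62 in A2780CP20, 9.34 and 9.31 on the 24 h arrays, and 10.54 and 10.51 on the 48 h arrays. The arrays fell into 3 levels without overlap, with untreated A2780 and 48 h at the top, A2780CP20 below, and 24 h lowest. CDKN1B was the single gene of the 10 called in A2780CP20, where it was lower by -0.79 ± 0.09 (1.73-fold, adjusted p = 0.00191 from limma) and 2.18% of all genes fell further. It kept this call under all 18 settings (-0.86 to -0.72, adjusted p 0.000285 to 0.0293), including the fit without the arrays labelled 24 h. Several of these settings leave the difference unchanged by design. At 24 h CDKN1B fell by 1.15 ± 0.09 on the log2 scale (2.22-fold, adjusted p = 2.53e-05 from limma). Both comparisons use the same 2 untreated arrays. Set against the 48 h arrays, A2780CP20 was again lower (48 h minus A2780CP20, 0.84 ± 0.09, adjusted p = 0.00156). The arrays at 24 h were lower than A2780CP20 by -0.36 ± 0.09 (adjusted p = 0.0148), a call that ended with only those groups fitted (0.0616) and without either 24 h array (0.0705 and 0.0914). At 48 h CDKN1B measured 0.05 ± 0.09 against untreated A2780 (95% interval -0.16 to 0.26, adjusted p = 0.881).

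CDKN1A encodes p21, an inhibitor of cyclin-CDK2 complexes. Its values were 7.90 and 7.81 in untreated A2780, 7.87 and 7.89 in A2780CP20, 7.40 and 7.32 on the 24 h arrays, and 7.68 and 7.62 on the 48 h arrays. Both temsirolimus groups lay below both untreated groups with no overlap. The fall at 24 h was -0.50 ± 0.09 (1.41-fold lower, adjusted p = 0.00315 from limma). At 48 h the difference was -0.21 ± 0.09, with an unadjusted p of 0.0485 and an adjusted p of 0.448. CDKN1C, an imprinted gene that encodes p57, measured 8.71 and 8.48 in untreated A2780, 8.80 and 8.60 in A2780CP20, 8.46 and 8.37 on the 24 h arrays, and 8.54 and 8.56 on the 48 h arrays. Its arrays at 24 h were the lowest, by a margin smaller than the gap of 0.23 between the untreated arrays. It was called in none of the 6 pairwise comparisons of the groups, with -0.18 ± 0.11 at 24 h (adjusted p = 0.289).

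**Figure D2:**
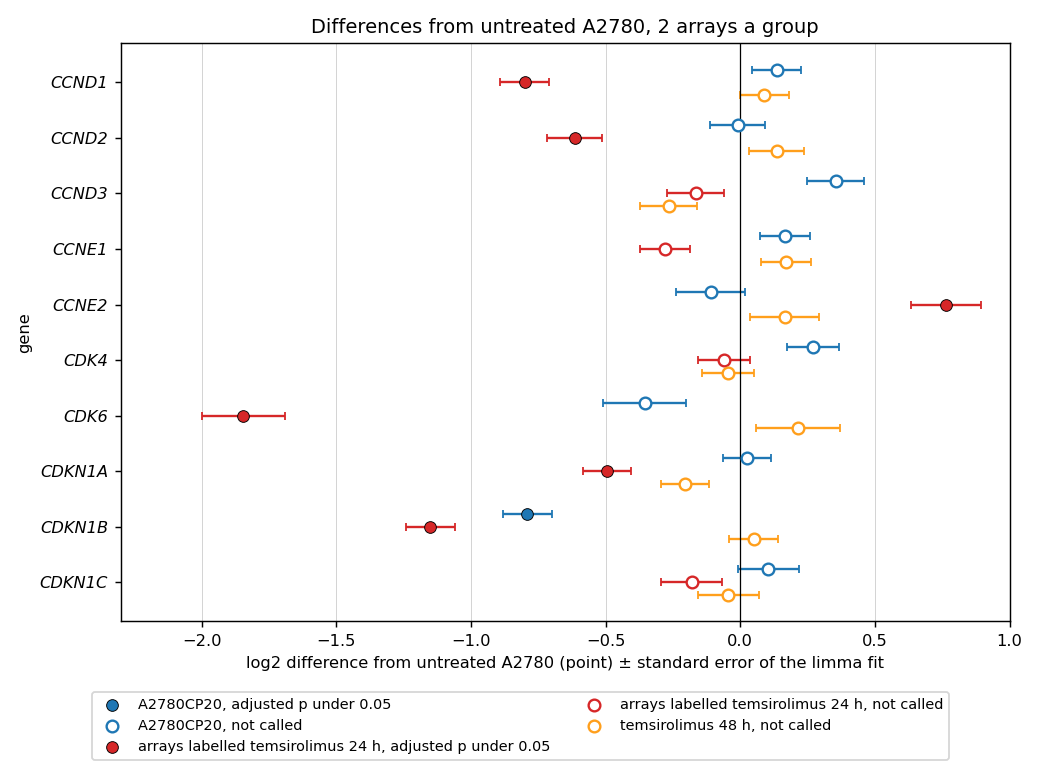
Log2 difference from untreated A2780 (horizontal axis) of each of the 10 genes (vertical axis) for A2780CP20, the arrays labelled temsirolimus 24 h and temsirolimus 48 h. Points are differences of means of 2 arrays, bars are standard errors of the limma fit, and filled points have an adjusted p under 0.05. Filled points are CDKN1B in A2780CP20 and, at 24 h, CCND1, CCND2, CCNE2, CDK6, CDKN1A and CDKN1B; at 48 h none is filled.

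By comparison, A2780CP20 against untreated A2780 asks how the subline differs from its parent. In it 1 of the 10 genes was called, a lower one, against 18.4% of all genes tested, 12.0% lower and 6.37% higher. The median difference of the 10 genes was 0.07, and that of all genes 0.03. The arrays of the groups did not overlap for 6 of the 10 genes, where 55.3% of all genes did not overlap.

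The comparison at 24 h was designed to follow temsirolimus in A2780, with the limit on these arrays given above. On the arrays with that label 5 of the 10 genes were called lower and 1 higher, while 30.1% of all genes were called, 15.3% lower and 14.9% higher. The 5 were CCND1, CCND2, CDK6, CDKN1A and CDKN1B, so that cyclins and a kinase that drive G1 and inhibitors that restrain it were lower together. Each of the 6 calls held under all 17 alternative settings, several of which leave the difference unchanged by design. The median difference was -0.39 for the 10 genes and 0.01 for all genes. None of the 10 genes overlapped between the groups, against 66.0% of all genes without overlap.

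At 48 h against untreated A2780, 0 of the 10 genes were called by limma, where 0.179% of all genes were (0.163% higher and 0.0163% lower). An unadjusted p under 0.05 was found for 2 of the 10, CCND3 and CDKN1A, and for 2043 of all genes. Groups did not overlap for 7 of the 10, against 46.8% of all genes. The differences ran from -0.27 for CCND3 to 0.22 for CDK6. From 24 h to 48 h, 6 of the 10 genes were called higher and 1, CCNE2, lower, against 31.0% of all genes called, 15.2% higher and 15.7% lower. The arrays did not overlap for 8 of the 10 (69.3% of all genes). CDK6 differed by 2.06 ± 0.15 (adjusted p = 1.93e-05) and CDKN1B by 1.20 ± 0.09 (adjusted p = 1.90e-05). The CDKN1A call in that comparison (0.29 ± 0.09, adjusted p = 0.0373) was lost under 8 of 17 settings, and that of CCNE2 (-0.60 ± 0.13, adjusted p = 0.00768) without replicate 1 at 24 h (-0.55, adjusted p = 0.0574) or at 48 h (-0.53, adjusted p = 0.0642).

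Ordering the 4 group means of each gene gave 30 neighbouring pairs, of which 7 were called, and in 6 of these the arrays labelled 24 h were on one side. The remaining pair was A2780CP20 below untreated A2780 for CDKN1B. Against A2780CP20, 9 of the 10 genes were called on the arrays labelled 24 h (33.7% of all genes), 8 lower (15.9%) and 1 higher (17.8%), and CDKN1C was not. All 10 did not overlap there, as did 62.7% of all genes. The CDK4 call (-0.33 ± 0.10, adjusted p = 0.0290) was lost under 5 of 17 settings. At 48 h 4 of 10 were called against A2780CP20 (22.7% of all genes): CDKN1B and CDK6 higher (13.5% of all genes), CCND3 and CDK4 lower (9.16%). There 8 of the 10 did not overlap, against 63.0% of all genes. Without the arrays labelled 24 h only CDKN1B and CCND3 passed there. CDK6 (0.57 ± 0.15, adjusted p = 0.0324) had an adjusted p of 0.0507 and CDK4 (-0.32 ± 0.10, adjusted p = 0.0475) one of 0.0786 in that fit. Over all 18 settings the CDK6 call was lost under 10 (0.32 to 0.82, adjusted p up to 0.189) and the CDK4 call under 12 (adjusted p up to 0.278). CDK6 measured 0.32 there without replicate 1 of A2780CP20.

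A list of 45 other genes of the G1/S control was set beside the 10, and 43 of them were measured. In A2780CP20 5 were called higher and 5 lower of 43, where 6.37% of all genes were called higher and 12.0% lower. Those higher were E2F2 (0.65 ± 0.11) and E2F4 (0.44 ± 0.10), which encode E2F factors, the INK4 inhibitor gene CDKN2B (0.45 ± 0.13), the cyclin A gene CCNA2 (0.36 ± 0.09) and CDC25A (0.36 ± 0.08), whose product activates CDK2. Those lower were TFDP2, which encodes a DNA-binding partner of E2F (-0.77 ± 0.12), FBXW7, whose product marks cyclin E for degradation (-0.48 ± 0.10), the pocket protein gene RBL2 (-0.46 ± 0.11), MNAT1 (-0.46 ± 0.09) and FOXO4 (-0.38). Of the same family, FOXO1 (0.05) and FOXO3 (0.23), named here after their values were seen, were not called. Any link of the FOXO genes to CDKN1B was not tested. The count of 10 was 2 with only the groups compared, 2 without replicate 1 and 1 without replicate 2 of untreated A2780.

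On the arrays labelled 24 h 11 of the 43 genes were called higher and 7 lower, against 14.9% and 15.3% of all genes. Higher were CDK7 (0.75 ± 0.12) and CCNH (0.72 ± 0.19), subunits of the kinase that activates CDKs, E2F8 (0.75 ± 0.18), an E2F repressor, and CDKN2A (0.73 ± 0.10), which encodes the CDK4 and CDK6 inhibitor p16. Of CDK2 and its activators, 6 of 7 genes were called higher and none lower (14.9% and 15.3% of all genes), with CDK2 itself at 0.48 ± 0.10 (adjusted p = 0.00626 from limma). In other roles the counts higher and lower were 2 and 2 of 10 E2F and DP factors and 1 and 3 of 13 degradation genes. They were 2 and 0 of 3 INK4 inhibitors, 0 and 1 of 3 pocket proteins, and 0 and 1 of 7 upstream factors. Lower were MYC (-1.42 ± 0.13), RNF123, which encodes a ubiquitin ligase subunit that acts on p27 (-1.10 ± 0.09), TFDP2 (-0.95 ± 0.12) and the ligase scaffold gene CUL4A (-0.92 ± 0.11). The median over the 43 was 0.08. At 48 h none of the 43 was called by limma, where 0.179% of all genes were. An unadjusted p under 0.05 was found for 3 of the 43 and for 2043 of the 18417 genes. E2F1 was not called in A2780CP20 (0.31 ± 0.12), at 24 h (0.23 ± 0.12) or at 48 h (0.13 ± 0.12).

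RB1, the target of cyclin D kinases, differed widely between the arrays of A2780CP20. They gave 8.45 and 10.23, a gap of 1.78, and only 3 of the 18417 genes differed more between those arrays. In the other groups the arrays were within 0.10 of each other, at 9.17 and 9.08 in untreated A2780, 9.03 and 9.01 at 24 h, and 9.34 and 9.24 at 48 h. Because the fit pools the spread over groups, its standard error for RB1 was 0.44 in every comparison, and no difference of RB1 was called.

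**Figure D3:**
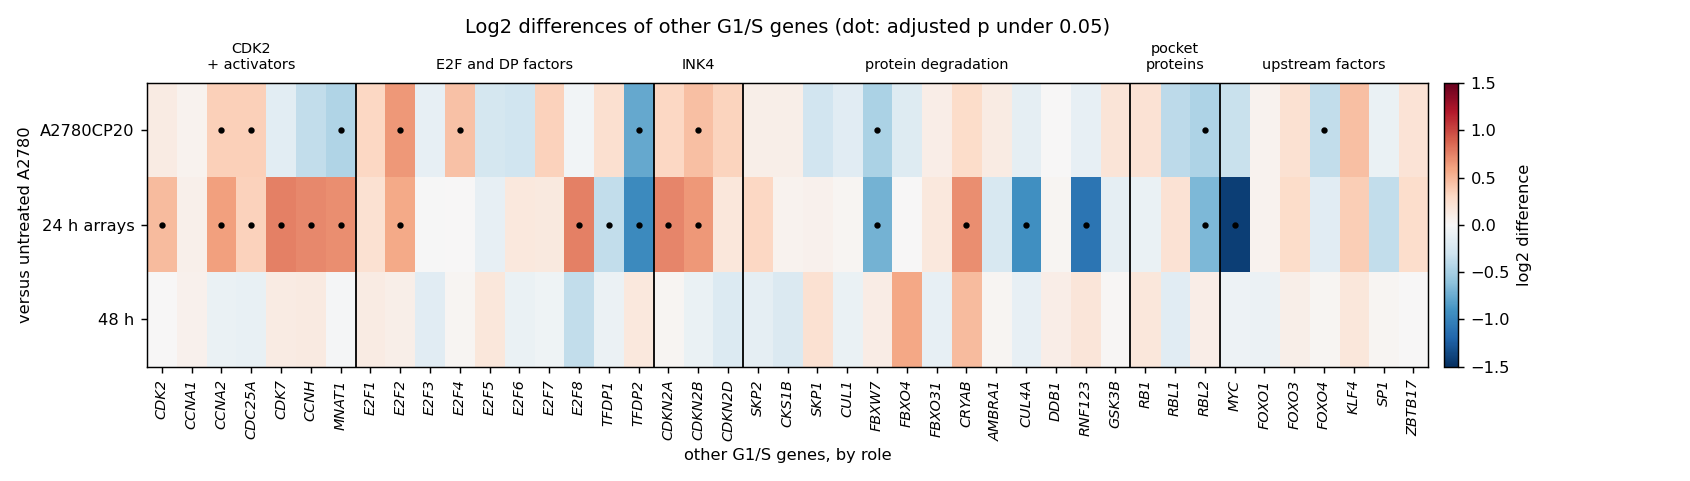
Log2 difference from untreated A2780 (colour) of 43 other G1/S genes (columns, grouped by role) in A2780CP20, on the arrays labelled temsirolimus 24 h and at 48 h (rows). Dots mark an adjusted p under 0.05: 10 in A2780CP20, 18 at 24 h and none at 48 h.

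The genes most like each member were sought by Pearson's r of log2 values over the 8 arrays, among 14424 genes with a group mean above the lower quartile. With 8 arrays in 4 groups and 2 of them far apart, many genes reach a high r: 27 exceeded 0.99 for CDK6, 17 for CCND1 and 14 for CDKN1B. CUX1, which encodes a homeodomain factor (0.997), and PCDHB16 (0.996) were nearest to CDK6, and CUX1 gave 0.993 over the 6 arrays without the label 24 h. FRRS1 (0.997) and HADHB, which encodes a subunit of the mitochondrial trifunctional protein (0.996), were nearest to CDKN1B, with 0.996 and 0.992 over the 6 arrays. For CCND1 the nearest were VPS51 (0.998) and TBC1D1 (0.995), which gave 0.936 and 0.800 over the 6. The nearest to CCND2 was ZNF827 (0.996), to CCNE2 ACSL4 (0.999) and to CDKN1A AJUBA (0.991). Among the 10 genes themselves, CCND2 and CDK6 followed each other at 0.984 over 8 arrays and 0.850 over 6, and CCND3 and CDK4 at 0.947 and 0.944. CCND1 and CDK6 gave 0.927 over 8 arrays and -0.30 over 6. These values share arrays and groups, describe this set of 8 and carry no test.

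The 10 genes lie on 6 chromosomes in RefSeq, with CCND2, CDK4 and CDKN1B on chromosome 12, CCND1 and CDKN1C on 11, CCND3 and CDKN1A on 6, and CDK6, CCNE2 and CCNE1 on 7, 8 and 19. On chromosome 12, CDKN1B was called lower in A2780CP20, and CCND2 (-0.01 ± 0.10) and CDK4 (0.27 ± 0.10) were not called. At 24 h CDKN1B and CCND2 were called lower and CDK4 was not.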

How the data were processed

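Total RNA was hybridised to 8 Affymetrix Human Gene 1.0 ST arrays, 2 in each of 4 groups taken from the sample titles. The deposited values are log2 intensities: they lie between 1.8 and 14.99 with near-equal medians, the log base being read from that range. The submitters' processing notes list Partek without a role. For background, normalization and probe summary the method is not stated.

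Of 33297 probe sets, 19460 had 1 gene symbol in the platform annotation, 1754 had several and 12083 were unnamed here. Symbols were updated by gene number through a RefSeq table (18389 of 18417 genes matched, 28 not), and the brightest probe set stood for a gene. Some listed genes are not reported here. limma 3.58.1 in R 4.3.3 fitted 4 group means to all 8 arrays (residual df 4, prior df 4.48), with two-sided tests, and was tested on simulated data. Unadjusted 95% intervals come from the same fit.

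The 10 genes were always named. By the rule set for naming, other G1/S genes were named up to 4 per direction and comparison by size. In A2780CP20 all 5 called in each direction were named, which departs from that rule. RB1, CDK2 and E2F1 could be named in any case, and FOXO1 and FOXO3 were added after their values were seen. The 3 most similar genes per member were ranked. Members and lists were chosen with earlier results of these data known. The number of arrays limits the precision.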

Additional observations from a re-analysis of the deposited data

Results flagged for a closer look

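For 7 of the 10 genes the change from untreated A2780 differed between the 2 temsirolimus times, by limma's test of 48 h against 24 h with adjusted p over all genes. The difference, 48 h minus 24 h, was 2.06 for CDK6 (changes of -1.85 at 24 h and 0.22 at 48 h, adjusted p = 1.93e-05), 1.20 for CDKN1B (-1.15 and 0.05, adjusted p = 1.90e-05) and 0.89 for CCND1 (-0.80 and 0.09, adjusted p = 0.000125). It was 0.75 for CCND2 (-0.62 and 0.14, adjusted p = 0.000623), 0.45 for CCNE1 (-0.28 and 0.17, adjusted p = 0.00629) and 0.29 for CDKN1A (-0.50 and -0.21, adjusted p = 0.0373). CCNE2 gave -0.60 (0.77 and 0.17, adjusted p = 0.00768). In this comparison 31.0% of all genes were called. The CDKN1A call was lost under 8 of 17 alternative settings, that of CCNE2 under 2 and that of CCNE1 under 1. The arrays labelled 24 h also correlated less with all other arrays (0.950 to 0.952), and the part of this in the 7 differences was not tested.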

How the results depend on the processing

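Of 1050 values of the 10 genes over the 6 comparisons and all alternatives, 977 kept direction and side of the threshold, 42 lost a call, 15 gained one and 16 changed sign, none of them a called gene. With quantile normalization the sign changed for CCND2 in A2780CP20 (0.07125) and for CCNE1 at 48 h against A2780CP20 (-0.10). With median centring the CCND2 difference in A2780CP20 became 0. The remaining sign changes came when 1 array was left out. Those ranges were -0.12 to 0.10 for CCND2, -0.02 to 0.07 for CDKN1A, -0.01 to 0.22 for CDKN1C and -0.29 to 0.07 for CCNE2 in A2780CP20. They were -0.16 to 0.07 for CDKN1C and -0.13 to 0.04 for CDK4 at 48 h against untreated A2780, -0.07 to 0.10 for CDK4 and -0.205 to 0.005 for CCND3 at 48 h against 24 h, and -0.075 to 0.085 for CCNE1 and -0.095 to 0.005 for CCND1 at 48 h against A2780CP20.

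The count of 1 called gene in A2780CP20 was 2 with quantile normalization, median centring, the dimmest 25% left out or the replicate block, and 3 when the prior followed intensity. Its range was 1 to 3 without 1 array. The count of 4 at 48 h against A2780CP20 was 2 with every probe set tested, with only these groups and without the arrays labelled 24 h, and 1 to 5 without 1 array. Of the other G1/S genes, the 10 called in A2780CP20 were 2 with only the groups compared and 1 to 15 without 1 array, the 15 at 48 h against A2780CP20 were 7 and 2 to 19, and the 17 at 24 h against A2780CP20 were 9 to 22 without 1 array. A lone array was assumed to vary like the other groups. Of all genes, 3388 were called in A2780CP20 (1022 with only the groups compared, 974 to 5543 without 1 array), 5551 at 24 h (3621 to 6895 without 1 array), 33 at 48 h (68 when the prior followed intensity, 4 to 57 without 1 array) and 4175 at 48 h against A2780CP20 (1645 with only the groups compared, 756 to 6759 without 1 array). Without 1 array the 6206 at 24 h against A2780CP20 became 3995 to 7088, and the 5702 at 48 h against 24 h became 3715 to 7154.

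Same-numbered arrays deviated together at r = 0.00 to 0.18 over 6 pairs of groups, so the numbers were not taken as pairs. With the replicate block CCND3 gained a call in A2780CP20 and CDK4 lost one at 48 h against A2780CP20 (adjusted p = 0.0507); the other 58 of 60 values kept theirs. The causes were not tested.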
